A study of Mus musculus with 24 samples.

Results

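Integrins and the proteins that tie them to actin were followed in macrophages isolated from regenerating mouse liver. The set holds 40 genes: 20 integrin chains, and 20 activators, actin linkers, adaptors and kinases of the focal adhesion. Each was matched by its symbol in the annotation of the array's probes, and all 40 had exactly 1 transcript cluster among the 22206 on the array.

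Liver cells of C57BL/6 mice, described as male in the study's methods, were selected with magnetic beads against F4/80, a macrophage surface protein, and their RNA was hybridised to 24 Clariom S mouse arrays, 3 per group. In the LR groups 70% of the liver was removed with the spleen in place, and cells were taken after 24 h, 3 days or 7 days. The LR+SE groups were sampled at the same times and had lost the spleen 7 days before resection. The SE group had lost the spleen and kept the whole liver, and the group labelled intact had kept both, although the methods name a sham operation for the controls, and the sources do not settle which holds. A preparation pooled cells of 5 mice per the methods, but each control group had 6 mice and each resection series 25. Arrays may therefore share animals, pools may have been smaller, and p-values, which measure only the spread between these preparations, may be too small. Values are log2 signal levels after robust multi-array averaging, so a difference of 1 log2 unit is a doubling on that scale.

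Each array had 50.1% to 53.2% of clusters above background, a level of 3.98 set by odorant receptor genes. The median correlation was 0.955 within groups and 0.881 between them. The mean of 3 Y-linked genes was 2.60 to 3.08 in all of intact and in 2 further preparations (LR+SE 3 days, replicate 1, and LR 7 days, replicate 2), against 6.75 to 8.78 on each of the 19 remaining. Any difference from intact therefore sets arrays without Y-linked signal against arrays mostly with it, and the 2 cannot be told apart there except through those 2 arrays. Replicate 2 of LR+SE 3 days stood apart, with a mean of 14.19 over 11 Kupffer cell markers against 16.26 and 16.32 on its group's other arrays. In a mixed sample, fewer cells of a type and less RNA per cell cannot be told apart.

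Integrins are pairs of an alpha and a beta chain that span the membrane and bind the matrix or other cells. Talins and kindlins bind the tail of the beta chain and switch the receptor to its active form, while vinculin, alpha-actinins, filamin, zyxin and Vasp couple it to actin and paxillin, p130Cas, Crk and Src carry the signal inward. Kupffer cells, the resident macrophages of the liver, sit in the sinusoids and hold to endothelium and matrix through such receptors, and the beta2 chain family serves white cells that arrive from the blood.

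RefSeq promoters (build GRCm38.p6) were available for 30 of the 40 genes, leaving Rock1 aside, and for 7 of the 10 genes that changed in the 24 h comparisons described below. Those of 2 actin-side genes that rose (Vcl, Fermt2), of the fibronectin receptor chain that rose (Itga5) and of the beta chain that fell (Itgb5) are shown as the 250 bases before the start of the gene, 5′ to 3′ on the gene's strand. Capitals mark the CArG box, the site read by serum response factor, in Vcl and Fermt2, and the letters GGGCGG, the core of the GC box, on either strand in Itga5 and Itgb5.
Vcl promoter (chr14:20929148-20929397, plus strand): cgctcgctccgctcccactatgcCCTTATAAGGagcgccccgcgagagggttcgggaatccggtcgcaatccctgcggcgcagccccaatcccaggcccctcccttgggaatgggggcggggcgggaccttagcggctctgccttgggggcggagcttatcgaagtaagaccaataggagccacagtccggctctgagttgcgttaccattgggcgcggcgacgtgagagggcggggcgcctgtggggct
Fermt2 promoter (chr14:45530066-45530315, minus strand): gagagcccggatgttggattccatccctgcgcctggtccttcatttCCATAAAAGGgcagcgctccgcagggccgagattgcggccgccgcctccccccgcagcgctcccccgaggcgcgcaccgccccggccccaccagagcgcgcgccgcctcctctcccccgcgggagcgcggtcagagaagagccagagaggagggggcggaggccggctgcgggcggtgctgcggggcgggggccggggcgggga
Itga5 promoter (chr15:103366792-103367041, minus strand): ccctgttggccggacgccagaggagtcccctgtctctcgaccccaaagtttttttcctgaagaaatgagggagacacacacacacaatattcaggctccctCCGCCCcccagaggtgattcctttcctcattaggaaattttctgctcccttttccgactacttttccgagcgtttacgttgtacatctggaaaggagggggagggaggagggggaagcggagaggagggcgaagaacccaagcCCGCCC
Itgb5 promoter (chr16:33829415-33829664, plus strand): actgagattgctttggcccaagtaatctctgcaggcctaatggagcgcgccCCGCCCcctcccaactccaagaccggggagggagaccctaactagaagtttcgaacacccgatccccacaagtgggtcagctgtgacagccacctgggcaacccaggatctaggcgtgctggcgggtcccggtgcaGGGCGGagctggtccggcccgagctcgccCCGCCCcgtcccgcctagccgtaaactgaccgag
A CArG box stood in the windows of Vcl, Fermt2 and Itgb6, 3 of 30 genes, against 1.47% of all 32851 promoter windows of this length, both strands searched. GGGCGG stood in 18 of the 30 and in all 7 of the 24 h genes with a window, against 32.7% of all windows. TGANTCA, which holds the AP-1 site, was found in Actn4, Itgax and Zyx against 6.75% of all windows, and GAGGAA, the core of a PU.1 site, in 10 of 30 against 23.3%. Of the 7 genes of the 24 h comparisons with a window, 2 held a CArG box, 1 held TGANTCA and 2 held GAGGAA. Flna, which also rose, had a window without a CArG box. A gene was counted where any of its windows held the motif, while the shares over all are of single windows. Genes with more than 1 window have more room for a match, so the 2 measures are not alike. Each motif was searched on its own, so matches of different motifs may overlap. A match is a run of letters and was not tested as a binding site.

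Of the 40 genes 29 lay above background on all 24 arrays and 5 below it on all 24: the laminin receptor chain Itgb4, the muscle laminin receptor chain Itga7, Itgb8, talin 2 (Tln2) and caveolin 1 (Cav1). Itga2, Itgax and Src also had means below background, with 1, 2 and 5 arrays above it. The F4/80 preparations thus held transcripts of the beta1, beta2, beta3, beta5, beta6 and beta7 chains, of talin 1 and of kindlins 2 and 3. Cav1, the coat protein of caveolae, ran from 2.35 to 3.44. Over the 8 groups 12 of the 40 genes (30%) passed limma's F test at an adjusted p under 0.05, against 15.4% of all 22206 clusters. They were Itga3, Itga5, Itga6, Itgal, Itgb3, Itgb5, Fermt2, Vcl, Flna, Actn4, Vasp and Pxn. The 2 shares are not alike, since 49% of all clusters had a mean below background, against 8 of the 40 genes. The set was also chosen with earlier results of these data known, so its share is not separate evidence.

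**Figure D1:**
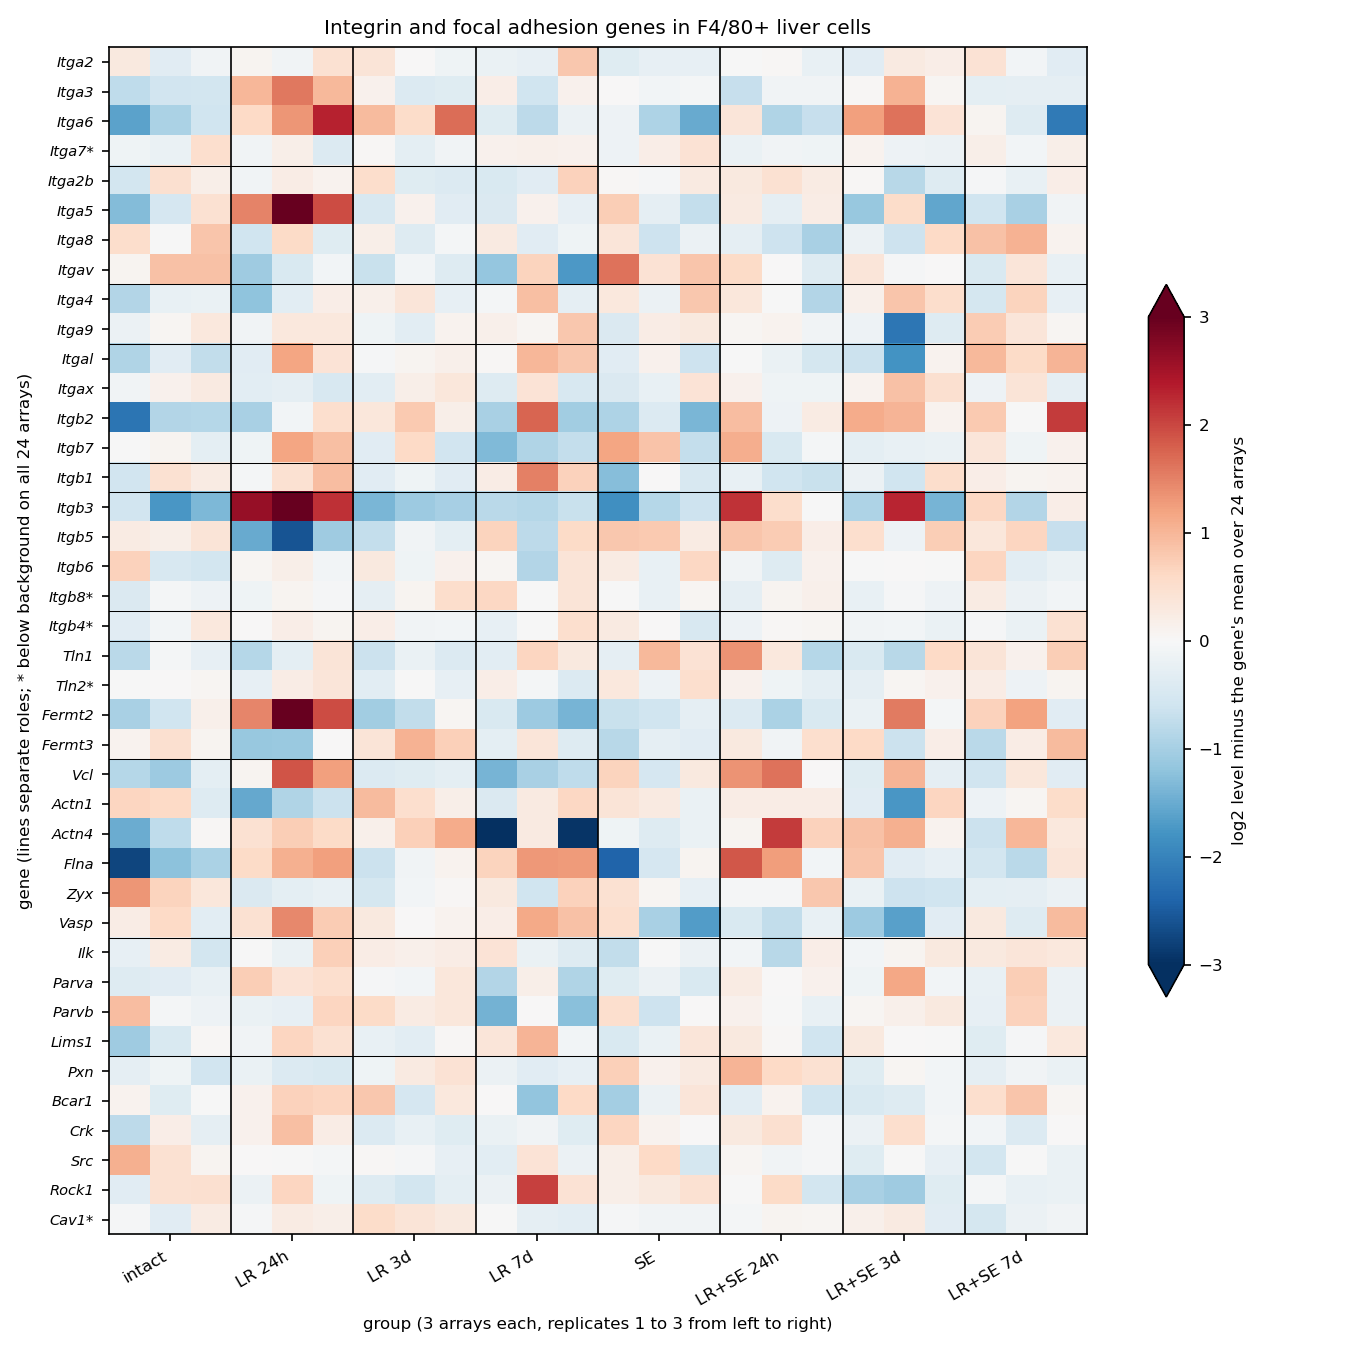
Heat map of the 40 genes (rows, grouped by role) on the 24 arrays (columns, 3 per group), coloured by the log2 level minus that gene's mean over all 24 arrays. The strongest reds lie at LR 24 h, in Itgb3, Itga5 and Fermt2, where Itgb5 is at its lowest; genes with an asterisk were below background on every array.

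The first question was what 24 h of regeneration did with the spleen in place. A set of 4 alpha and beta chains for matrix (Itgb3, Itga5, Itga6, Itga3) and 3 genes of the actin side (Fermt2, Flna, Vcl) rose against intact, while Itgb5 and Zyx fell. That made 9 of 40 genes called (22.5%), against 7.59% of all clusters and 13.3% of those with a mean above background. By direction it was 7 up and 2 down, against 3.47% and 4.12% of all clusters. The set was chosen with earlier results of these data known, so an excess over these shares is not separate evidence. A gene is called changed where limma's adjusted p, by Benjamini-Hochberg over all 22206 clusters, was under 0.05. The median change over the 40 genes was 0.19 log2 units, against 0.01 over all clusters.

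Itgb3 encodes beta3, which pairs with alphav to bind vitronectin, fibronectin and fibrinogen, and with Itga2b on platelets. Its log2 level was 5.84, 4.68 and 5.09 on the intact arrays and 9.03, 11.79 and 8.61 at LR 24 h. The 2 groups lay far apart, the change was 4.61 ± 0.81 (standard error, n = 3 per group, limma adjusted p = 0.00102), and replicate 2 of LR 24 h was the highest of all 24 arrays. The level was back between 5.06 and 5.43 at LR 3 days and between 5.58 and 5.76 at LR 7 days. Its alpha partners were not called. Itga2b stayed at 5.42 to 5.75 at LR 24 h against 4.96 to 6.00 in intact, and Itgav was 8.43, 9.05 and 9.44 against 9.59, 10.39 and 10.38 (-1.14 ± 0.46, adjusted p = 0.156). With Y-linked signal as a block, the difference of Itgav turned to 0.11 (adjusted p = 0.974). That block is set only by replicate 1 of LR+SE 3 days and replicate 2 of LR 7 days. On the latter Itgav was 10.19, against 8.34 and 7.78 on its group's other arrays.

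Itga5 encodes alpha5, which with beta1 forms the main fibronectin receptor. It read 5.97, 6.78 and 7.74 in intact and 8.76, 10.26 and 9.23 at LR 24 h, a rise of 2.59 ± 0.50 (limma adjusted p = 0.00238) between groups that did not overlap. Itga3, a laminin receptor chain, read 3.38, 3.57 and 3.59 in intact, below background on every array, and 5.14, 5.73 and 5.12 at LR 24 h. The measured difference was 1.82 ± 0.27 (adjusted p = 2.26e-04), and against the background level the rise was at least 2.54-fold. Itga6, another laminin receptor chain, rose by 2.45 ± 0.53 (adjusted p = 0.00564), from 4.80, 5.46 and 5.81 to 7.00, 7.72 and 8.71. Itgb1, the beta chain that alpha3, alpha5 and alpha6 share, read 13.74, 14.75 and 14.56 in intact and 14.25, 14.76 and 15.22 at LR 24 h (0.39 ± 0.36, adjusted p = 0.647), so its groups overlapped.

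Itgb5 went the other way. This chain pairs with alphav to bind vitronectin and takes part in the uptake of dying cells by phagocytes. It fell by 1.99 ± 0.41 (limma adjusted p = 0.00369), from 11.18, 11.12 and 11.33 to 9.43, 8.36 and 9.87. At LR 24 h its lowest array was replicate 2, the array on which Itgb3, Itga5, Itga3, Fermt2 and Vcl were highest. Leaving that array out kept the calls of Itgb3, Itga5, Itga6, Itga3, Itgb5, Fermt2 and Flna and lost those of Vcl and Zyx.

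On the actin side, Fermt2 encodes kindlin 2, the kindlin of non-blood cells, which helps talin to activate integrins. It read 6.62, 7.01 and 7.74 in intact and 9.06, 10.75 and 9.54 at LR 24 h, a rise of 2.66 ± 0.49 (limma adjusted p = 0.00141). Flna, the actin crosslinker filamin A, rose by 2.60 ± 0.58 (adjusted p = 0.00684), from 11.42, 12.95 and 13.24 to 14.75, 15.26 and 15.42. Vcl, vinculin, which strengthens the link of talin to actin, rose by 1.81 ± 0.46 (adjusted p = 0.0182), from 5.76, 5.53 and 6.32 to 6.69, 8.50 and 7.84. Zyx, which gathers at adhesions under tension, fell by 1.09 ± 0.31 (adjusted p = 0.0335), from 10.69, 10.02 and 9.69 to 8.92, 9.08 and 9.14. None of these 4 genes overlapped between the groups. With 3 against 3 arrays a full separation has a rate of 0.1 by chance alone. Here and below it therefore only describes the arrays and adds little to a call. When 1 array was left out at a time, the call of Zyx was kept in 1 of 6 fits and that of Vcl in 2 of 6.

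With Y-linked signal as a block, all 9 changes kept their direction and only Itgb5 stayed called (-2.58, adjusted p = 0.0315). Flna then had 3.33 (adjusted p = 0.0518), Itgb3 3.87 (adjusted p = 0.123), Itga5 2.51 (adjusted p = 0.113), Itga3 1.16 (adjusted p = 0.117) and Fermt2 2.11 (adjusted p = 0.169). A comparison added after seeing the data, LR 24 h against LR 3 days, used 6 arrays that all carried Y-linked signal. It called 6 genes, against 5.18% of all clusters. Itgb3 was higher at 24 h by 4.54 ± 0.81 (adjusted p = 0.00204), Fermt2 by 2.77 ± 0.49, Itga5 by 2.37 ± 0.50 and Itga3 by 1.40 ± 0.27. The alpha-actinin Actn1 was lower by -1.57 ± 0.43 (adjusted p = 0.0387) and kindlin 3 (Fermt3) by -1.46 ± 0.39 (adjusted p = 0.0326). Of the 9 genes called against intact, Itgb5 (-1.35, limma adjusted p = 0.0611), Vcl (1.42, adjusted p = 0.0875) and Flna (1.18, adjusted p = 0.321) did not pass here. Nor did Itga6 (0.34, adjusted p = 0.843) and Zyx (-0.13, adjusted p = 0.908).

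**Figure D2:**
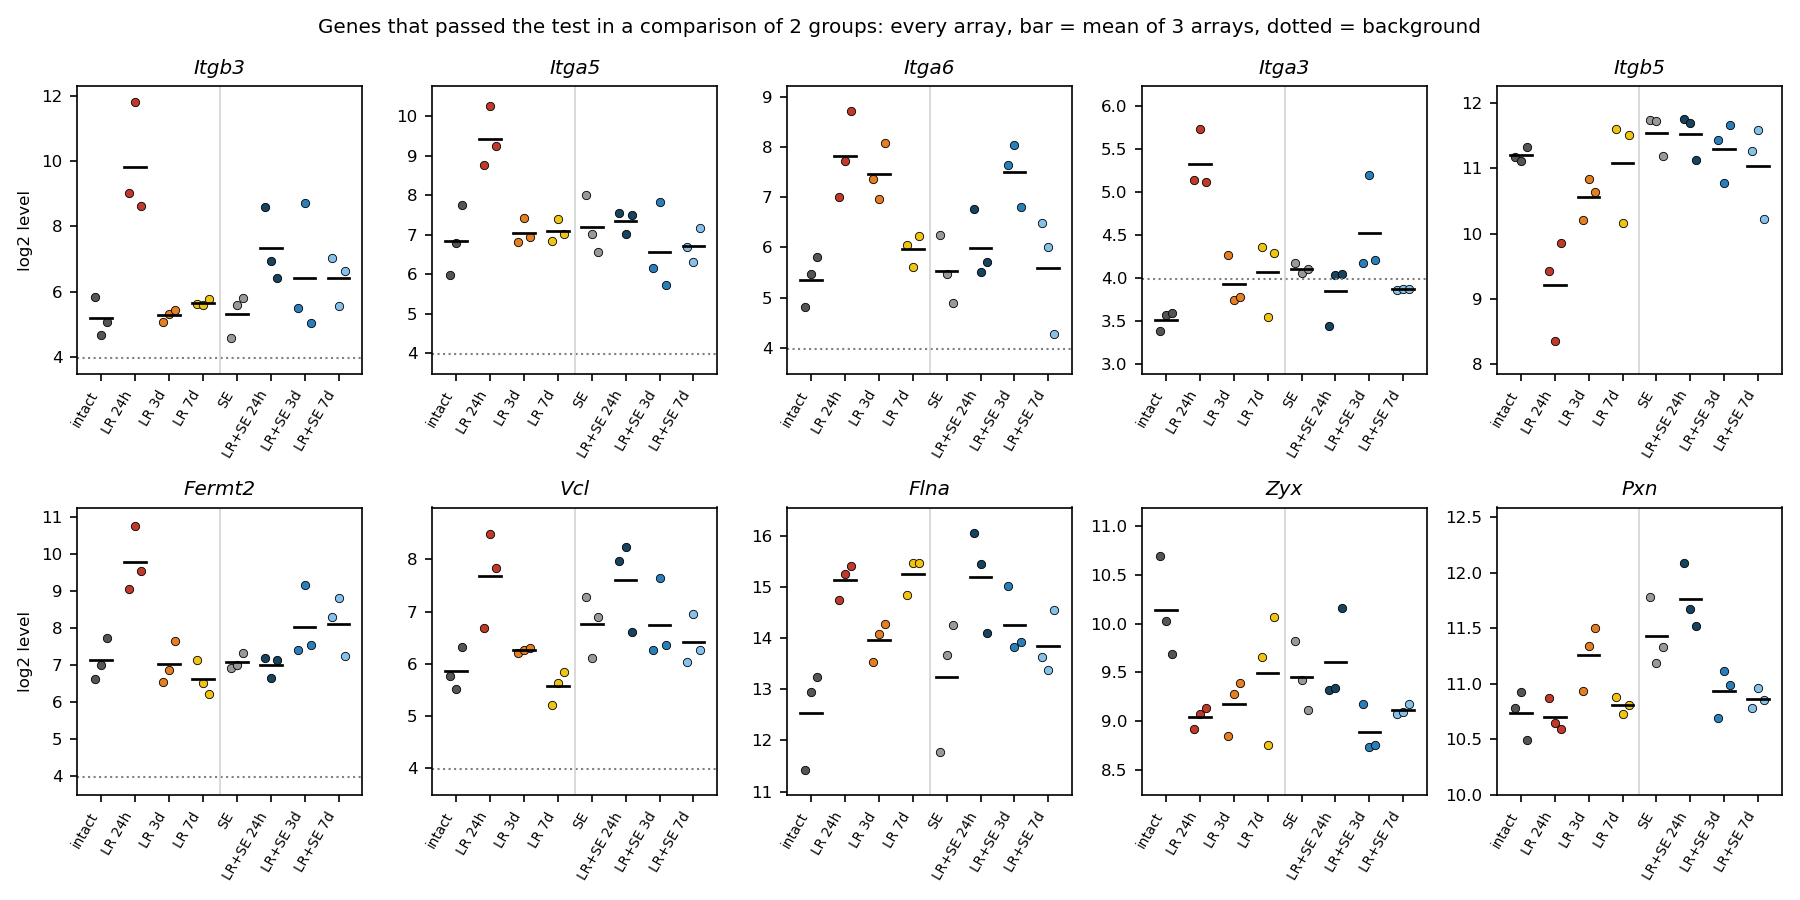
Log2 levels of the 10 genes called in any comparison of 2 groups, 1 point per array, with a bar at each mean of 3 and a dotted line at the background level where the axis reaches it. Itga5, Itga3 and Fermt2 are high at LR 24 h and not at LR+SE 24 h, Itgb3 is highest at LR 24 h, and replicate 2 of LR+SE 3 days is above its group's other arrays in these 4.

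Markers of other cells moved with these changes, and their part in them was not tested. At LR 24 h against intact 7.59% of all clusters were called. Over 15 markers of sinusoidal endothelium 3 rose and 1 fell at LR 24 h, and their mean level was 13.50 to 13.89 on its arrays against 12.04 to 13.51 in intact, with Lyve1 up by 6.03. Over 13 neutrophil markers 7 rose, with means of 9.62 to 10.63 against 5.01 to 6.28, and over 10 monocyte markers 4 rose (10.13 to 10.70 against 6.63 to 6.86). The monocyte list includes the integrin chain Itgam and the ligand Fn1, both described below. Of 11 Kupffer cell markers 4 fell and Marco rose, and their mean was 14.62 on replicate 2 of LR 24 h against 15.86 and 16.12 on the others. Of 14 hepatocyte markers 5 fell. Of 9 platelet genes the granule genes Pf4 and Ppbp and P-selectin (Selp) rose, by 6.47, 2.38 and 7.52, and Clec1b, which Kupffer cells share, fell. The others were not called. Over the 9 genes 8 changes were positive, with a median of 0.17, and 5 genes had means below background at LR 24 h. Of 11 stellate cell genes 1, Dcn, rose (2.86).

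After splenectomy the same interval was set against SE, whose arrays carried Y-linked signal while those of intact did not. At LR+SE 24 h against SE 0 of 40 genes were called by limma, and 2 passed an unadjusted p under 0.05. The 0 calls are near the share of all clusters called, 1.33%, which itself was lower than the 7.59% of LR 24 h against intact. The counts of the 2 series thus differ in their controls too and are not a result about these genes. Flna read 16.06, 15.44 and 14.11 against 11.77, 13.67 and 14.27 in SE (1.97 ± 0.58, adjusted p = 0.109). Itgb3 read 8.60, 6.95 and 6.41 against 4.58, 5.58 and 5.80 (2.00 ± 0.81, adjusted p = 0.304), with all 3 arrays above all 3 of SE. Fermt2 differed by -0.09 ± 0.49, Itga5 by 0.15 ± 0.50, Itga3 by -0.26 ± 0.27 and Itgb5 by -0.02 ± 0.41.

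Set directly against each other at 24 h, LR+SE had lower Fermt2, Itga5 and Itga3 and higher Itgb5 and Pxn than LR. These 5 of 40 genes (12.5%) were called, against 3.26% of all clusters and 5.56% of those above background. The 2 higher genes stand against 2.04% of clusters and the 3 lower ones against 1.22%. Since the set was chosen with earlier results of these data known, these shares are not separate evidence either. All 6 arrays carried Y-linked signal. The comparison shares its LR 24 h arrays with that against intact, so opposite signs in the 2 are not separate evidence.

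Fermt2 read 7.18, 6.66 and 7.14 at LR+SE 24 h, 2.79 ± 0.49 log2 units below LR 24 h (log2 change -2.79, limma adjusted p = 0.00179). Itga5 read 7.54, 7.02 and 7.50 (-2.07 ± 0.50, adjusted p = 0.0241). Itga3 read 3.45, 4.04 and 4.05, with 2 of 3 arrays just above background and a mean of 3.84 below it (-1.48 ± 0.27, adjusted p = 0.00272). All 3 genes lay wholly below their LR 24 h arrays. The call of Itga5 was lost without replicate 2 of LR 24 h (-1.65, adjusted p = 0.154) and without replicate 1 or 2 of LR+SE 24 h, while the other 4 held in all 6 fits.

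Itgb5 read 11.76, 11.70 and 11.12, higher by 2.31 ± 0.41 (limma adjusted p = 0.00212), and close to the SE arrays at 11.74, 11.72 and 11.19. Pxn encodes paxillin, the scaffold on which adhesion kinases gather. It read 12.09, 11.67 and 11.52 against 10.87, 10.65 and 10.59 at LR 24 h (1.05 ± 0.20, adjusted p = 0.00452), and the 2 groups did not overlap. Pxn was already at 11.78, 11.19 and 11.33 in SE against 10.78, 10.92 and 10.50 in intact (0.70 ± 0.20, adjusted p = 0.124). Its change at 24 h lost the call under quantile normalization (0.86, adjusted p = 0.0533) and a robust prior (adjusted p = 0.0568).

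Vcl, Flna and Actn4 were not called between LR+SE and LR at 24 h. Vcl stood at 7.97, 8.24 and 6.62 at LR+SE 24 h, a difference of -0.07 ± 0.46 from LR 24 h, and Flna differed by 0.06 ± 0.58. Itgb3 and Itga6 were lower at LR+SE 24 h on every array without passing the test (-2.49 ± 0.81, adjusted p = 0.11, and -1.82 ± 0.53, adjusted p = 0.0677). Itga6 did pass where dim clusters were left out (adjusted p = 0.0424) and with the robust prior (adjusted p = 0.0472).

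The interaction asks whether the change from the control to 24 h differed with the spleen removed. It was called for 1 of 40 genes, Itga3 (-2.08 ± 0.38, limma adjusted p = 0.0154), against 0.684% of all clusters. Part of this difference rests on intact arrays at background, which lack Y-linked signal, and with that signal as a block it was -1.43 (adjusted p = 0.317). The interactions of Fermt2 (-2.75 ± 0.69, adjusted p = 0.0665), Itga5 (-2.43 ± 0.71, adjusted p = 0.12), Itgb5 (1.97 ± 0.58, adjusted p = 0.121) and Itgb3 (-2.61 ± 1.14, adjusted p = 0.33) did not pass.

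**Figure D3:**
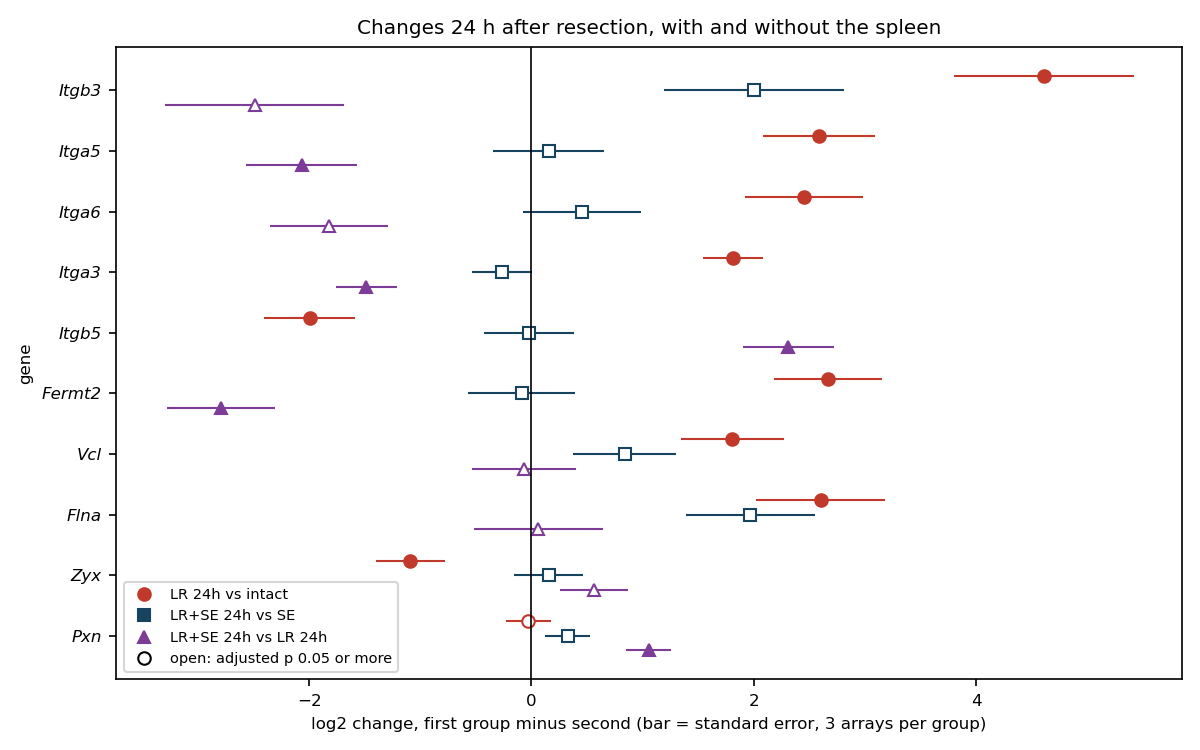
Log2 changes at 24 h (points, with standard errors) for the 10 genes in 3 comparisons: LR against intact (circles), LR+SE against SE (squares) and LR+SE against LR (triangles), filled where called. Itga5, Itga3, Fermt2 and Itgb5 changed in LR and lie within 0.26 log2 units of 0 in LR+SE against SE, while Flna lies near 2 log2 units or more against both controls.

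Between LR+SE and LR at 24 h, where 3.26% of all clusters were called, markers of other cells moved as well. Of 15 sinusoidal endothelial markers 2 were lower, Clec4g (-2.31) and Pecam1 (-1.64), and the list mean was 12.36 to 12.80 against 13.50 to 13.89. Selp was lower by -6.82, with 17.14 on replicate 2 of LR 24 h, and Dcn by -2.90. Of 13 neutrophil markers 4 were higher, the granule genes Mpo (7.45), Ltf (6.14), Elane (6.13) and Camp (4.03), with list means of 12.51 to 12.98 against 9.62 to 10.63. Of 10 monocyte markers 1 was higher, Cx3cr1 (4.28). Of 11 mitosis genes 4 were higher, with list means of 6.14 to 6.26 against 4.45 to 4.56. Over 11 Kupffer cell markers none was called and the means overlapped, at 15.54 to 16.27 against 14.62 to 16.12. The part of these lists in the 5 changes was not tested.

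At later times few of the 40 genes were called. At LR 3 days against intact 8 of the 40 passed an unadjusted p under 0.05. Of these 1 was called, Itga6 (2.5%), near the 2.36% of all clusters. It read 7.36, 6.96 and 8.08, a rise of 2.11 ± 0.53 (limma adjusted p = 0.0377) that was lost without any 1 of the 6 arrays. It was also lost with a replicate block (adjusted p = 0.051) and with Y-linked signal as a block (1.95, adjusted p = 0.319). At LR 3 days 10 of 11 mitosis genes rose, with a list mean of 7.00 to 7.45 against 4.48 to 4.91 in intact, 4 of 10 monocyte markers rose and 3 of 14 hepatocyte markers fell. Their part in the level of Itga6 was not tested. At LR+SE 3 days against SE 6 genes passed an unadjusted p under 0.05, and the same gene alone was called, against 6.92% of all clusters. It read 7.64, 8.04 and 6.81 against 6.24, 5.47 and 4.90 (1.96 ± 0.53, adjusted p = 0.0286). Those 2 comparisons share no arrays, and in each the groups did not overlap. By day 7 Itga6 was at 5.61 to 6.23 in LR and 4.28 to 6.49 in LR+SE.

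The second call depended on 4 of the 6 arrays, among them replicates 1 and 2 of LR+SE 3 days, and failed under quantile normalization (adjusted p = 0.0705) and without the 2 arrays outside intact that lacked Y-linked signal, among them its own replicate 1 (1.89, adjusted p = 0.0792). Itga9, an osteopontin and Vcam1 receptor chain, was called in its place in that last fit, having read 13.57, 11.54 and 13.33 at LR+SE 3 days. On replicate 2 of that group Itgb3 was 8.70, Itga5 7.82, Fermt2 9.16, Itga3 5.19 and Vcl 7.64, each the highest of the 3 arrays. The same array had a monocyte marker mean of 12.82, against 10.68 and 9.36, and a hepatocyte marker mean of 12.44, against 11.18 and 11.02.

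At LR 7 days against intact 8 of the 40 passed an unadjusted p under 0.05, and Flna was called (1 of 40, against 1% of all clusters). It read 14.85, 15.48 and 15.46 and rose by 2.73 ± 0.58 (limma adjusted p = 0.0255), after 13.53, 14.08 and 14.28 on day 3 (1.43 ± 0.58, adjusted p = 0.27). The call was lost without replicate 1 of intact, the lowest array, and without replicate 1 or 3 of LR 7 days. With Y-linked signal as a block it was lost too (3.21, adjusted p = 0.0564). On these arrays 5 of 15 sinusoidal endothelial markers fell, with means of 10.88 to 11.47 against 12.04 to 13.51 in intact, and 7 of 14 hepatocyte markers fell, with means of 6.73 to 8.34 against 9.13 to 10.93. At LR+SE 7 days 9 of the 15 endothelial markers were higher than at LR 7 days, with means of 13.23 to 14.19. The part of these cells in the 7 day values was not tested. No gene was called by limma at LR+SE 7 days against SE, where 8 passed an unadjusted p under 0.05 and 1.52% of all clusters were called. Between LR+SE and LR there were 0 calls at 3 days, where 0.126% of all clusters were called, and 0 at 7 days, where 1.64% were. At an unadjusted p under 0.05, 6 of the 40 passed at each time. The interactions at 3 and 7 days gave 0 calls too, where 0.513% and 0.122% of clusters were called. Of the 40 genes 2 and 5 passed an unadjusted p under 0.05 there. All these shares are of calls by adjusted p. Shares of all clusters at the unadjusted threshold are not given, so the unadjusted counts have no measure beside them.

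Replicate 2 of LR 7 days stood apart in the alpha-actinin Actn4. Levels of Actn4 at LR 7 days were 8.52, 12.51 and 9.29, against 10.76, 11.48 and 12.26 in intact and 11.59, 13.23 and 12.55 at LR+SE 7 days (2.35 ± 0.71 for LR+SE against LR, adjusted p = 0.103). Without the 2 arrays outside intact that lacked Y-linked signal, this replicate and replicate 1 of LR+SE 3 days, Actn4 was called at 3.55 (adjusted p = 0.0011), and the counts became 4 for LR 7 days against intact and 3 for LR+SE against LR. That setting was chosen after seeing the data. The share of all clusters called in it is not given, so these counts are not a result about these genes. Itgav, the alphav chain, was also called lower at LR 7 days in that fit (-2.06, adjusted p = 0.00569), having read 8.34, 10.19 and 7.78 on the 3 arrays. Rock1, a kinase that drives actomyosin contraction, had its highest level of all arrays, 15.28, on that replicate, where the group's others were 13.05 and 13.65.

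Splenectomy alone changed none of the 40 genes at the threshold: SE against intact had 0 calls by limma, 3 at an unadjusted p under 0.05 (Itga3, Zyx and Pxn), and 0.554% of all clusters called. Vasp, a regulator of actin filament growth, varied over the 8 groups (F test adjusted p = 0.03) without a call in any pair. It read 11.61, 12.59 and 11.89 at LR 24 h against 10.68, 10.39 and 10.91 at LR+SE 24 h (-1.37 ± 0.45, adjusted p = 0.12), and 11.42, 11.16 and 11.24 at LR 3 days against 10.05, 9.51 and 10.80 at LR+SE 3 days (-1.15 ± 0.45, adjusted p = 0.532). The groups did not overlap at either time.

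The leukocyte integrins were described chain by chain. The beta2 chain Itgb2 pairs with Itgal to form LFA-1, with Itgam to form Mac-1 (CD11b/CD18), and with Itgax (CD11c). Itgb2 read 11.05, 12.37 and 12.40 in intact, 12.27, 13.16 and 13.75 at LR 24 h, 13.60, 14.04 and 13.42 at LR 3 days and 12.28, 15.00 and 12.21 at LR 7 days. It was not called in any comparison: the changes against intact were 1.12 ± 0.63, 1.75 ± 0.63 and 1.22 ± 0.63 (limma adjusted p = 0.361, 0.188 and 0.453). With Y-linked signal as a block it was called at LR 3 days (3.40, adjusted p = 0.0375). That block is set only by replicate 1 of LR+SE 3 days and replicate 2 of LR 7 days, the array at 15.00. In LR+SE Itgb2 read 14.18, 13.10 and 13.50 at 24 h, 14.36, 14.27 and 13.35 at 3 days and 14.04, 13.24 and 15.35 at 7 days. Against SE, at 12.32, 12.84 and 11.89, every one of those 9 arrays was higher, by 1.25 ± 0.63, 1.64 ± 0.63 and 1.86 ± 0.63 on average (adjusted p = 0.454, 0.133 and 0.149).

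Itgam, which is no member of the set and is named as the partner of Itgb2, moved far more. It read 5.23, 7.67 and 8.01 in intact and 14.53, 16.49 and 15.73 at LR 24 h, a rise of 8.61 ± 1.15 (limma adjusted p = 9.93e-05), and 12.42, 12.91 and 12.38 at LR 3 days (5.60 ± 1.15). At LR+SE 24 h it read 14.75, 13.60 and 12.98 against 8.03, 11.54 and 9.74 in SE (4.01 ± 1.15, adjusted p = 0.098). Itgam also marks monocytes and neutrophils, and it is itself among the monocyte markers, so their mean is not separate from its level. At LR 3 days the monocyte list mean was 9.43 to 10.22 and the neutrophil list mean 5.96 to 6.53. The part of these cells in the levels of Itgam was not tested.

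Itgal read 11.95, 12.52 and 12.10 in intact, 12.51, 14.03 and 13.27 at LR 24 h, 12.82, 12.94 and 12.99 at LR 3 days and 12.89, 13.85 and 13.66 at LR 7 days. It passed the F test (adjusted p = 0.0285) and no comparison of 2 groups. At 7 days it lay above its control on every array in both series, by 1.28 ± 0.39 in LR and by 1.13 ± 0.39 in LR+SE (limma adjusted p = 0.131 and 0.164). In the splenectomised groups it read 12.52, 12.99 and 12.22 in SE, 12.84, 12.65 and 12.32 at 24 h, 12.22, 11.06 and 12.95 at 3 days and 13.82, 13.44 and 13.86 at 7 days. The lowest of all arrays was replicate 2 of LR+SE 3 days.

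Itgax, the CD11c chain, lay between 3.06 and 4.43 and was above background on 2 of 24 arrays, both of LR+SE 3 days. Its levels were 3.43, 3.67 and 3.80 in intact, 3.22, 3.27 and 3.06 at LR 24 h, 3.22, 3.72 and 3.87 at LR 3 days and 3.16, 3.95 and 3.06 at LR 7 days. They were 3.10, 3.32 and 3.95 in SE, 3.68, 3.41 and 3.41 at LR+SE 24 h, 3.65, 4.43 and 4.02 at 3 days and 3.40, 3.94 and 3.28 at 7 days. No order of groups can be read from values at background.

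Itgb7, which pairs with Itga4 in the homing receptor of gut lymphocytes, read 8.22, 8.30 and 7.93 in intact, 8.08, 9.40 and 9.13 at LR 24 h, 7.87, 8.83 and 7.65 at LR 3 days and 6.90, 7.31 and 7.50 at LR 7 days. In the splenectomised groups it read 9.40, 9.08 and 7.50 in SE, 9.30, 7.76 and 8.15 at 24 h, 7.93, 8.0 and 8.02 at 3 days and 8.59, 8.08 and 8.35 at 7 days. None of its comparisons was called. The 2 series did not overlap at 7 days, where LR+SE was higher by 1.10 ± 0.44 (limma adjusted p = 0.263).

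The activators of leukocytes are talin 1 and kindlin 3. Tln1 was above 16.7 on every array and was not called in any comparison. It read 16.77, 17.51 and 17.33 in intact, 16.71, 17.27 and 17.95 at LR 24 h, 16.92, 17.38 and 17.17 at LR 3 days and 17.26, 18.23 and 17.85 at LR 7 days. With the spleen removed it read 17.29, 18.55 and 18.01 in SE, 18.91, 17.90 and 16.72 at 24 h, 17.11, 16.74 and 18.17 at 3 days and 17.97, 17.69 and 18.32 at 7 days. The group means spanned 0.84 log2 units with a pooled SD of 0.62.

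Fermt3 encodes kindlin 3, the kindlin of blood cells, and was not called against a control at 24 h. It read 10.59, 10.98 and 10.57 in intact and 9.36, 9.39 and 10.50 at LR 24 h (-0.96 ± 0.39, limma adjusted p = 0.161), then 10.89, 11.54 and 11.21 at LR 3 days and 10.21, 10.85 and 10.11 at LR 7 days. In SE it was 9.66, 10.23 and 10.16 and at LR+SE 24 h 10.79, 10.40 and 11.01 (0.72 ± 0.39, adjusted p = 0.501), then 11.09, 9.87 and 10.71 at 3 days and 9.70, 10.72 and 11.45 at 7 days. At LR 24 h every array lay below intact and at LR+SE 24 h every array lay above SE, but the interaction did not pass (1.68 ± 0.55, adjusted p = 0.169).

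**Figure D4:**
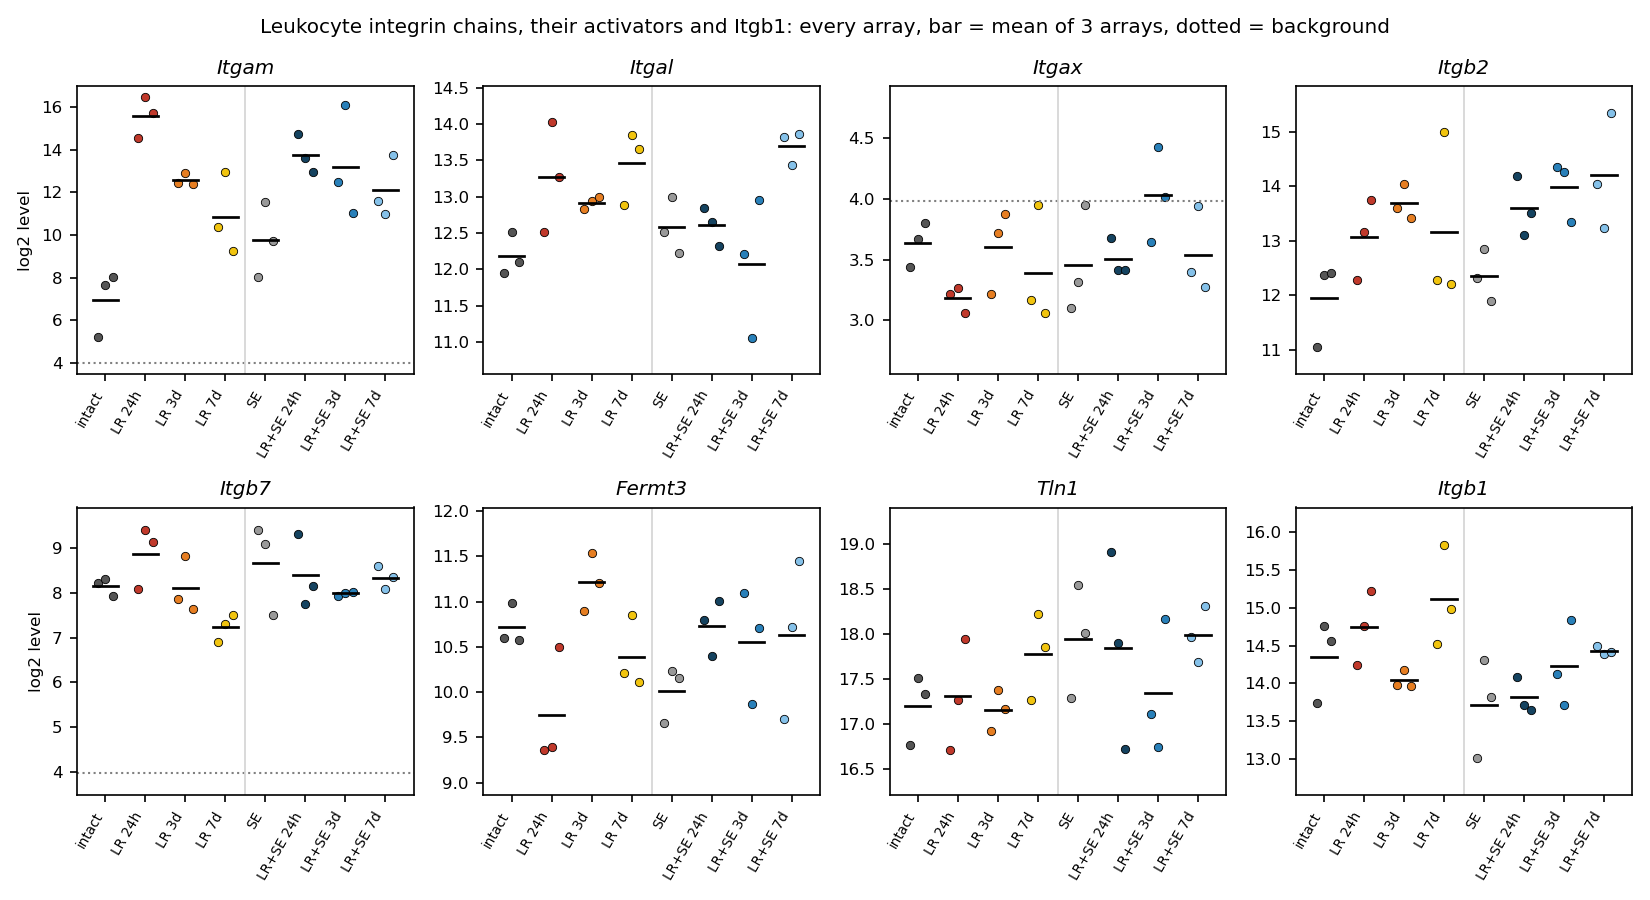
Log2 levels on every array of the leukocyte chains Itgam, Itgal, Itgax, Itgb2 and Itgb7, of Fermt3 and Tln1 and of Itgb1, with a bar at each mean of 3 and a dotted line at background where the axis reaches it. Itgam runs from 5.23 to 16.49, while Itgax stays at or near background and Tln1 above 16.7.

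Other genes above background that were called in none of the 10 comparisons of 2 groups were Itga4 and Itga9, the Vcam1 receptor chains (10.39 to 12.51 and 11.54 to 14.52 over all arrays), Itga8 (4.45 to 6.46), Itgb6 (4.51 to 6.10), and the adaptors Crk (7.50 to 9.20) and Bcar1 or p130Cas (3.77 to 5.79). All 4 parts of the complex of integrin-linked kinase belonged here as well: Ilk (9.26 to 10.80), its partner Lims1 or PINCH (9.55 to 11.62), and the parvins Parva (3.76 to 5.84) and Parvb (4.93 to 7.26). Ilk had a pooled SD of 0.36 and group means within 0.64 log2 units of each other.

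The ligands of these receptors were followed as a list. Of 26 measured matrix, plasma and cell surface ligands 14 rose and 1 fell at LR 24 h against intact (57.7%). Over all clusters 7.59% were called, and 13.3% of those with a mean above background. The list was chosen with earlier results of these data known, so its share is not separate evidence. Its median change was 1.81 log2 units, against 0.01 over all clusters. Thbs1, thrombospondin 1, was below background in intact and at 11.06, 13.57 and 13.02 at LR 24 h (measured difference 9.02 ± 1.38, limma adjusted p = 2.92e-04), so that against the background level its rise was at least 380-fold. Jam2 rose by 7.79 ± 0.73, fibronectin (Fn1) by 7.44 ± 0.91 and the fibrinogen chain Fga by 7.37 ± 1.02. Fibrinogen is made by hepatocytes, and Jam2 and the type IV collagens are made by endothelial and stromal cells. Of 14 hepatocyte markers 0 rose and 5 fell in the same comparison, and the part of these cells in the ligand levels was not tested. Vcam1, bound by alpha4 and alpha9, fell by 1.69 ± 0.39 (adjusted p = 0.00843), from 17.58, 19.01 and 18.41 to 16.99, 15.91 and 17.01.

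At LR+SE 24 h against SE 5 of the 26 ligands rose: Fn1 (6.36 ± 0.91), Fga (4.67 ± 1.02), Fgb (4.56 ± 0.96), Fgg (4.16 ± 0.87) and Jam2 (4.02 ± 0.73). There 1.33% of all clusters were called. Against LR 24 h, 9 were lower and Vcam1 higher (2.49 ± 0.39, limma adjusted p = 5.96e-04). In that comparison 3.26% of all clusters were called. Among the 9, the largest differences were those of Jam2 (-3.81 ± 0.73), Fga (-3.76 ± 1.02), Ccn2 (-3.06 ± 0.67) and Ccn1 (-2.80 ± 0.74), and the list's median was -1.52. Ccn2 lay at 5.51, 9.65 and 5.51 at LR 24 h, so replicate 2 carried much of its difference. At LR+SE 3 days against SE 9 ligands rose and Vcam1 fell (-2.33 ± 0.39), where 6.92% of all clusters were called. On these arrays 12 of 14 hepatocyte markers were also higher than in SE. Their part was not tested there either.

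**Figure D5:**
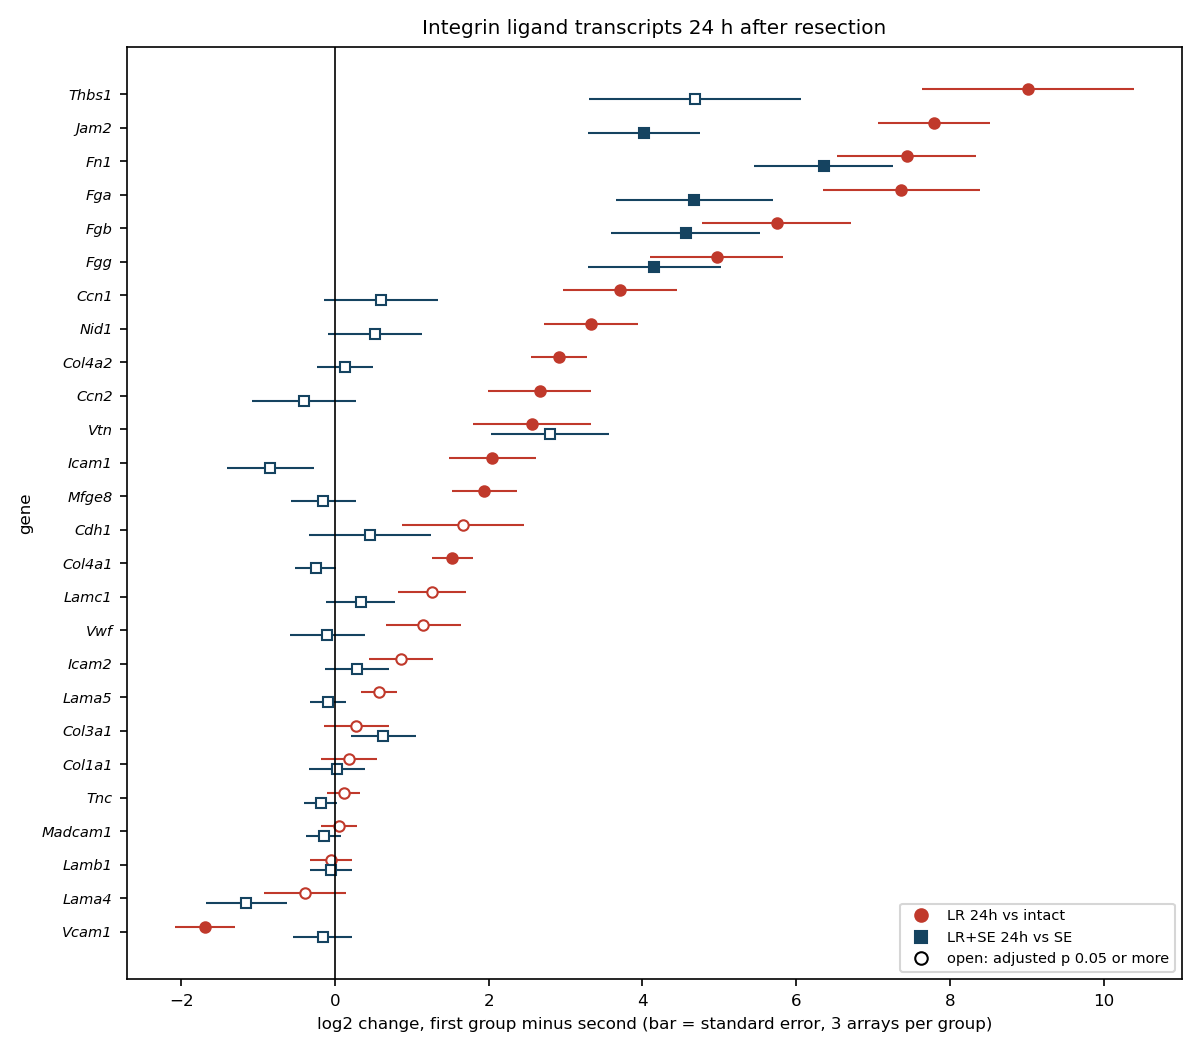
Log2 changes at 24 h with standard errors for 26 integrin ligand genes, in LR against intact (circles) and LR+SE against SE (squares), filled where called. In LR 14 genes lie to the right of 0 and Vcam1 to the left among the filled points, and in LR+SE only the fibrinogen chains, Fn1 and Jam2 are filled.

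Of 49 other adhesion adaptors and kinases 7 rose and 5 fell at LR 24 h (24.5%), with a median of 0.09. The share called was 7.59% over all clusters and 13.3% over those with a mean above background. This list too was chosen with earlier results of these data known. The tetraspanin Cd9, which associates with integrins, rose by 3.61 ± 0.54 (limma adjusted p = 2.25e-04), the Src family kinase Fgr by 2.80 ± 0.65 and the myosin heavy chain Myh9 by 2.49 ± 0.37. Fyb, an adaptor of leukocyte integrin activation, fell by 1.89 ± 0.40. At LR+SE 24 h against SE 1 of the 49, Pfn1, was called (1.06 ± 0.24), against 1.33% of all clusters. Against LR 24 h 1 was higher, Rasgrp2 (1.40 ± 0.28, adjusted p = 0.00672), an activator of Rap1 upstream of talin, and 1 lower. There 3.26% of all clusters were called. Of 5 other integrin chains on the array, Itgam alone was called at LR 24 h against intact, and the other 4 had group means below background.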

How the data were processed

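Levels were measured on 24 Clariom S mouse arrays of RNA from F4/80+ liver cells, 3 per group in 8 groups. The authors deposited log2 values, normalized by RMA (robust multi-array averaging) in the Transcriptome Analysis Console, whose version is not given in the sources used here. They ran from 1.73 to 19.93, and compression near the top was not tested, so changes are given on the deposited log2 scale. Of 28846 entries, 6640 controls were left out. The background level was the 0.95 quantile of the array values of 1081 odorant receptor clusters. The fit in limma 3.58.1 (R 4.3.3) used all 24 arrays and gave each group its mean, leaving 16 residual degrees of freedom beside 4.23 from the prior, with Benjamini-Hochberg adjustment over 22206 clusters and a threshold of 0.05. The smallest exact two-sided p for 3 against 3 arrays is 0.1, so calls rest on the pooled spread. The interaction is the change after splenectomy minus that with the spleen. The test was tried on simulated data. The 40 genes and all lists were chosen with earlier results of these data known. Values on every array were given for called genes whose groups did not overlap (up to 8 per comparison), for Itgal, Itgax, Itgb2, Itgb7, Tln1, Fermt3 and Itgam, and, chosen after their values were seen, for Itgb1, Itgav, Actn4, Vasp and Vcam1; up to 4 called genes were named per list. Levels of different genes were not compared, since probes differ. The number of arrays limits the precision. Values after ± are standard errors. Alternatives were a replicate block, quantile normalization, leaving out dim clusters, a robust trended prior, leaving out each array, and a block for Y-linked signal. Figures used matplotlib 3.10.9.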

Additional observations from a re-analysis of the deposited data

Results flagged for a closer look

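Itga3, a laminin receptor chain, was the 1 gene of the 40 whose change from control to 24 h differed between the series with and without the spleen by a test of the difference itself. It was higher at LR 24 h than in intact and not at LR+SE 24 h than in SE, an interaction of -2.08 log2 units (limma adjusted p = 0.0154). The intact arrays were at background, and the call was lost without replicate 2 of LR 24 h (adjusted p = 0.0557).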

How the results depend on the processing

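Under each alternative the number of the 40 genes called stayed within 1.5 times the value reported, apart from the following. With Y-linked signal as a block, LR 24 h against intact had 1 call in place of 9, LR 3 days against intact 1 (Itgb2, not Itga6), LR 7 days against intact 0, LR+SE 3 days against SE 2 (Itga6 and Rock1), LR+SE against LR at 7 days 1 (Actn4) and the 24 h interaction 0, and the uncalled difference of Itgav at LR 24 h (-1.14) turned to 0.11 (adjusted p = 0.974). With a replicate block, LR 3 days against intact had 0 calls (Itga6, adjusted p = 0.051), and no other count moved by over 1.5 times. Replicate numbers did not pair the samples (median correlation of deviations -0.00671 for the same number and -0.0191 for different numbers). Quantile normalization left 1 call at LR+SE 3 days against SE, Rock1 in place of Itga6. Leaving out dim clusters gave 2 calls in the 24 h interaction, adding Fermt2. Without the arrays of LR 7 days and LR+SE 3 days that lack Y-linked signal, a setting chosen after seeing the data, LR 7 days had 4 calls, LR+SE against LR at 7 days 3 and the 7 day interaction 1. The share of all clusters called in that fit is not given. Leaving out 1 array at a time gave 7 to 10 calls for LR 24 h, 0 for LR 3 days, 0 to 4 for LR 7 days, 0 to 1 for LR+SE 3 days, 4 to 6 for LR+SE against LR at 24 h, 0 to 4 at 7 days, 0 to 2 for the 24 h and 0 to 1 for the 7 day interaction, and 9 to 17 for the F test. The highest counts at 7 days came without replicate 2 of LR 7 days. The planned use of a second row per gene was not run, since each gene had 1. The causes of these shifts were not tested.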
